A study of Mus musculus with 11 samples.

Results

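Tecta, Tectb, Otog, Otogl, Otoa and Ceacam16 encode 6 glycoproteins that build or anchor the tectorial membrane. They were taken by symbol from the 4 deposited tables of single cells of the mouse cochlear duct, in which 24898 gene symbols occur. Rows for Tecta, Tectb, Otog, Otogl and Otoa were present at all 4 ages, and Ceacam16 had a row at P7. The cells came from untreated wildtype CD1 mice at embryonic days 14 and 16 (E14, E16) and postnatal days 1 and 7 (P1, P7). P1 had 4 libraries and E16 had 3, while E14 and P7 had 2 each, those of P7 being numbered 4 and 5. Cochleae of several animals were pooled for a library, so that p-values measure the spread between pools, and age cannot be told apart from the collection.

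The tectorial membrane is an acellular sheet of collagens and glycoproteins that lies over the hair cells and is secreted by the epithelium beneath it during development. Interdental cells hold its medial edge, Kölliker's organ (KO) lies between them and the hair cells, and pillar and Deiters cells support the outer hair cells. α-Tectorin (Tecta) and β-tectorin (Tectb) are zona pellucida domain proteins of the striated-sheet matrix in which the collagen fibrils are embedded. Otogelin (Otog) and otogelin-like (Otogl) are mucin-related proteins of the acellular membranes of the inner ear, otoancorin (Otoa) attaches the membrane to the cells beneath it, and CEACAM16 is a secreted adhesion protein of the striated-sheet matrix.

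In the GRCm38 assembly, the one also called mm10, Tecta covers chromosome 9 from 42329619 to 42399929 on the minus strand with up to 24 exons, and Tectb chromosome 19 from 55180733 to 55196313 on the plus strand with up to 11. Otog lies on chromosome 7 from 46240987 to 46311434 on the plus strand with 56 exons, and Otogl on chromosome 10 from 107760531 to 107912134 on the minus strand with 58. Otoa lies on chromosome 7 from 121081650 to 121163097 on the plus strand with 29 exons, and Ceacam16 on chromosome 7 from 19852097 to 19861299 on the minus strand with 6. Gm47629 lies antisense to Tecta, Gm19345 overlaps Ceacam16 on the opposite strand and Mir6715 lies within Tectb on its strand. The method counts transcript ends, and how well the transcripts of each gene were captured was not measured. Levels are thus compared between cells for a gene, and between genes only as a ratio that changes from group to group.

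The 250 bases before the start sites of Tecta and Tectb are shown because the levels of these genes went opposite ways after P1. For Tecta, RefSeq lists a pair of start sites, and the window that holds a match to the SOX motif below is shown. They are RefSeq sequences of GRCm38.p6, for Tecta chr9:42399948-42400197 on the minus strand and for Tectb chr19:55180476-55180725 on the plus strand, written 5′ to 3′.
Tecta: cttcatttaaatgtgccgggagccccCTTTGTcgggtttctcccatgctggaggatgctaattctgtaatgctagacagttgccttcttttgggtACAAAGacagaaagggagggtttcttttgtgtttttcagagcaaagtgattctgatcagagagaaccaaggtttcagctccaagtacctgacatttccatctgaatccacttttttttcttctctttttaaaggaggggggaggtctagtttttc
Tectb: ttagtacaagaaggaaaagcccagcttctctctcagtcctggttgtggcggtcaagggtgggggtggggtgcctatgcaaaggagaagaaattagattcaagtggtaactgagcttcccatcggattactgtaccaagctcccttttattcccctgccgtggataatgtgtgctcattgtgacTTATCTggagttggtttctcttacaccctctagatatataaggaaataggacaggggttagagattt
Capitals mark ACAAAG or its reverse complement CTTTGT, a core motif of SOX factors, and AGATAA or its reverse complement TTATCT, a motif of GATA factors. Over the 300 bases from 250 before to 50 after the start site, on both strands, the first was found in Tecta at -155 and -224 and in Otog at -177 and -161, against 18.7% of 32851 mouse promoters. The window of the other Tecta start site, chr9:42401641-42401940, held neither this motif nor the GATA motif. The second was found in Tectb at -67, against 11.2% of promoters. TATAAA (13.6% of promoters) and CAGCTG (16.3%) were in none of the windows of Tecta, Tectb, Otog and Otoa, and CANNTG, which includes CAGCTG and which 72.3% of promoters hold, was in all 4. Otogl and Ceacam16 are named only.

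The libraries held 1247 to 5598 cells and 3828400 to 23523800 UMIs (unique molecular identifiers, which count captured transcripts), with medians of 2478 to 5648 per cell. The deposited values, natural logs of a share of UMIs, were turned back to counts per 1000000 UMIs (CPM) and averaged over the cells of a group in each library. Cells were placed in groups by marker genes, none of them among the 6. Groups other than KO needed a score of at least 0.8 on their list (mean z-score over the cells of the same age). They also needed a lead of 0.3 over the other such lists and at least 2 markers detected. KO was a looser gate, with no lead and no least number of markers. It took cells left over with a best score under 0.5 on those lists and a KO score that was not negative. KO cells were medial where the score of a medial list was not negative, and the rest were remaining KO. At P1 these rules gave 972 interdental, 3576 medial KO, 1724 remaining KO and 547 inner phalangeal cells among 14043. They also gave 1039 hair cells (inner and outer together), 884 lateral domain, 274 lateral non-sensory and 177 Oc90-positive roof cells. The 4569 ungated and 281 mixed cells were left out. Lateral domain stands for lateral prosensory cells at E14 and E16 and for pillar and Deiters cells later. At E16 it can also hold inner pillar cells, which the study found as a cluster at that age and which were not gated apart here. At P7 the markers that divide KO were weak and KO was kept whole, and glia (119 cells) and mesenchyme (228) were gated as well. Inner phalangeal cells showed a median of 2 of their 4 markers, as did roof cells. The gates differed in how many cells lay near their edge, from 2 of 1039 hair cells at P1 to 78 of 137 lateral non-sensory cells at E14 and 13 of 25 interdental cells at P7. No 2 libraries shared more than 36 cell barcodes. Hair cells at E14 numbered 14 and 24, and their values are given without calls, because data simulated without differences also gave calls in this small group.

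Across the 7 groups tested at P1, 29 of 35 comparisons of a gene in a group with the mean of the other groups passed at an adjusted p under 0.05 in limma, 13 higher and 16 lower, against 37.5% of such comparisons over all genes tested. The counts were 17 of 35 at E14 with hair cells left aside (6.77% over all genes), 22 of 45 at E16 (8.93%) and 24 of 30 at P7 (25.9%). With the few hair cells counted, the E14 values were 21 of 40 and 10.2%. Each of the 5 genes had its own order of groups, shown in the plot of P1 levels.

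**Figure D1:**
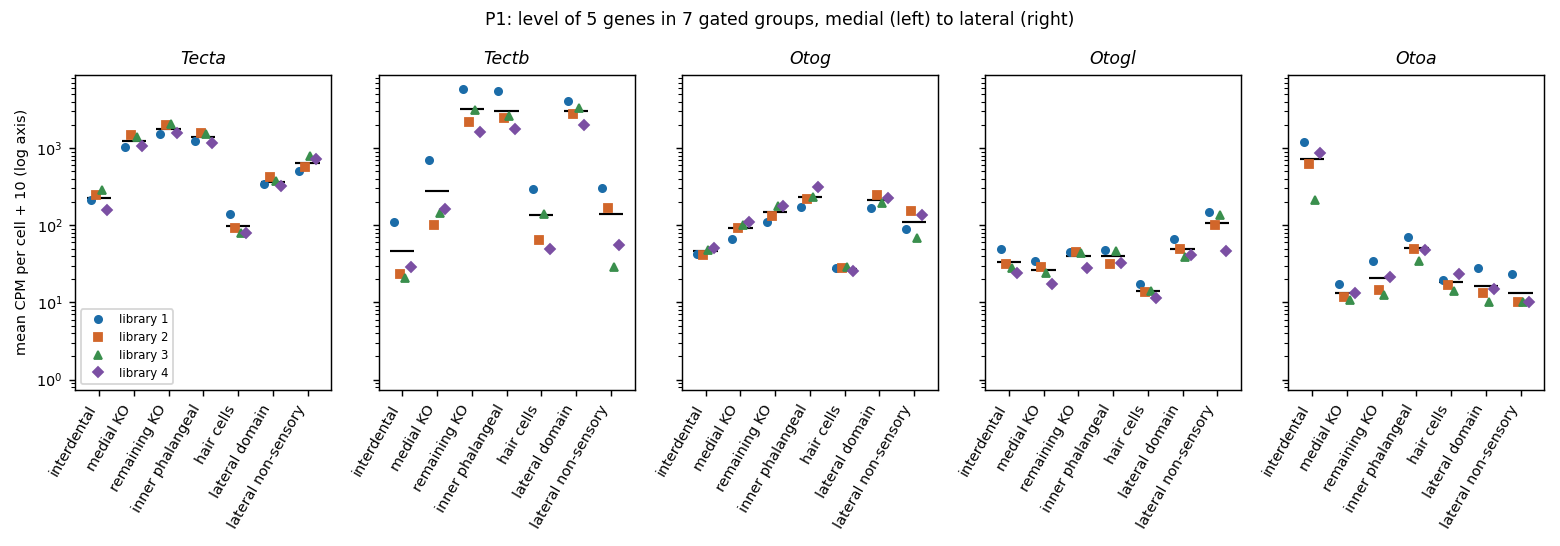
Level of 5 genes in 7 gated groups at P1, ordered from the medial to the lateral edge of the duct floor, with inner and outer hair cells pooled. The y axis is mean CPM per cell plus 10 on a log scale, points are the 4 libraries and horizontal lines their mean; Tecta was highest in KO and inner phalangeal cells, Tectb in remaining KO, inner phalangeal and lateral domain cells, and Otoa in interdental cells, where its libraries ran from 201 to 1176 CPM.

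Among gated cells, Tecta at P1 was high in KO and inner phalangeal cells and lower on either side. Ungated cells, which have no place in this order, held it at 1129 to 1540 CPM. They gave 31.5% to 40.6% of the Tecta UMIs of a library and 23.3% to 32.9% of all its UMIs. Remaining KO cells held 1529, 1957, 2067 and 1540 CPM in libraries 1 to 4, and inner phalangeal cells held 1235, 1580, 1514 and 1165 CPM. Medial KO cells held 1017, 1455, 1394 and 1070 CPM. Medial and remaining KO did not overlap, inner phalangeal cells overlapped both, and every library of these 3 groups lay above every library of the other 4. Lateral non-sensory cells held 493, 554, 772 and 713 CPM, lateral domain cells 329.7, 411, 363 and 309.6 CPM and interdental cells 203, 235, 276 and 148 CPM. Hair cells were the lowest of the 7 groups tested, at 131, 82.2, 69.6 and 70.4 CPM, and did not overlap with the other 6.

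On the log2 scale of mean CPM plus 10, Tecta was higher than the mean of the other groups in remaining KO (1.98, SE 0.12, adjusted p = 3.07e-14), inner phalangeal cells (1.55, SE 0.12, adjusted p = 5.57e-12) and medial KO (1.37, SE 0.12, adjusted p = 1.21e-10). It was lower in hair cells (-2.93, SE 0.12, adjusted p = 4.38e-20), interdental cells (-1.53, SE 0.12, adjusted p = 3.9e-12) and the lateral domain (-0.69, SE 0.12, adjusted p = 1.67e-05). These calls held without any 1 library. With roof cells as a further group, which meant leaving out library 3 with its 9 such cells, interdental cells (-1.20, adjusted p = 0.0827) and the lateral domain (-0.26, adjusted p = 0.777) did not pass. Lateral non-sensory cells did not pass (0.25, SE 0.12, adjusted p = 0.0946).

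Neighbouring groups along the duct differed in 23 of 30 comparisons of the 5 genes at P1, 8 with the more medial group higher and 15 with it lower, against 29.5% over all genes. In this order hair cells, inner and outer together, stood between inner phalangeal and lateral domain cells. Outer hair cells, however, lie among the pillar and Deiters cells. Tecta was lower in interdental cells than in medial KO (-2.48, SE 0.15, adjusted p = 9.99e-14) and higher in inner phalangeal than in hair cells (3.85, SE 0.15, adjusted p = 8.69e-20). Medial KO was lower than remaining KO by a small amount (-0.52, SE 0.15, adjusted p = 0.0343), a call that was lost without library 2, 3 or 4 (adjusted p 0.126, 0.134 and 0.103). Remaining KO and inner phalangeal cells did not pass (0.36, SE 0.15, adjusted p = 0.129).

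With each cell thinned to 1500 UMIs, 77.4% of P1 KO cells, 35.3% of lateral domain cells and 8.47% of hair cells had a Tecta UMI (93.9%, 73.5% and 22.5% before thinning). Median depths were 4812, 5716 and 6717 UMIs, so that the lower share in hair cells was found in the deeper cells.

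In the fetal duct Tecta was already high in KO and in medial prosensory cells, the progenitors that lie beside it. At E14 medial prosensory cells held 814 and 926 CPM, medial KO 708 and 698 CPM and remaining KO 622 and 623 CPM. Lateral non-sensory cells (26.3 and 62.4 CPM) and roof cells (16.3 and 28.4 CPM) were far lower, with no overlap, and the 14 and 24 hair cells held 84.5 and 259.5 CPM. Medial prosensory cells were above the other groups (2.07, SE 0.20, adjusted p = 2.86e-06), as were medial and remaining KO, and lateral non-sensory cells below (-2.61, SE 0.20, adjusted p = 6.25e-08). The calls of medial prosensory, medial KO and remaining KO cells were lost without the 5% of cells of most UMIs (adjusted p 0.0604, 0.0761 and 0.137). At E16 medial prosensory cells, with 885, 655 and 799.8 CPM, were again above the mean of the other groups (1.39, SE 0.22, adjusted p = 4.89e-05).

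Between consecutive ages, 20 of 86 comparisons of a gene within the same group passed, 15 higher and 5 lower at the later age, in limma fits of each group, against 6.45% over all genes. The gates, with the division of KO, were cut relative to the cells of each age. The part of a shift of these cuts in the changes was not tested. Tecta in lateral non-sensory cells rose from 26.3 and 62.4 CPM at E14 to 609, 423 and 151 CPM at E16 (2.78, SE 0.42, adjusted p = 0.000297). The composition of this group moved with its Tecta. Its cells showed a median of 0 of the 4 Hensen markers at E14 and 1 at E16, and 78 of 137 cells at E14 and 94 of 269 at E16 lay near the edge of the gate. Their part in the rise was not tested. In remaining KO it rose from 1037, 686 and 856 CPM at E16 to the P1 levels above (1.04, SE 0.20, adjusted p = 0.0039). The smaller rise in medial KO (0.80, SE 0.18, adjusted p = 0.0151) lost its call when E16 library 1 or 2 or P1 library 2 or 3 was left out (adjusted p 0.0526 to 0.0756).

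From P1 to P7 Tecta fell in KO, inner phalangeal and lateral domain cells. In the whole of KO it went from 1172, 1600, 1573 and 1253 CPM to 132 and 158 CPM, a 9.64-fold lower mean with no overlap (-3.18, SE 0.19, adjusted p = 3e-08). Inner phalangeal cells fell to 304 and 169 CPM (-2.53, SE 0.32, adjusted p = 4.79e-05) and lateral domain cells to 152 and 115 CPM (-1.34, SE 0.25, adjusted p = 0.00136). The last call was lost without P7 library 5 (-1.15, adjusted p = 0.0589), where the lone P7 library was assumed to vary like the others. The P7 inner phalangeal cells also held the 5 glial markers at 469 and 1238 CPM and the 5 mesenchyme markers at 330 and 1764 CPM in sum, whose part in their fall was not tested. Hair cells held 47.3 and 62.6 CPM at P7 and did not pass (-0.57, SE 0.39, adjusted p = 0.39).

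**Figure D2:**
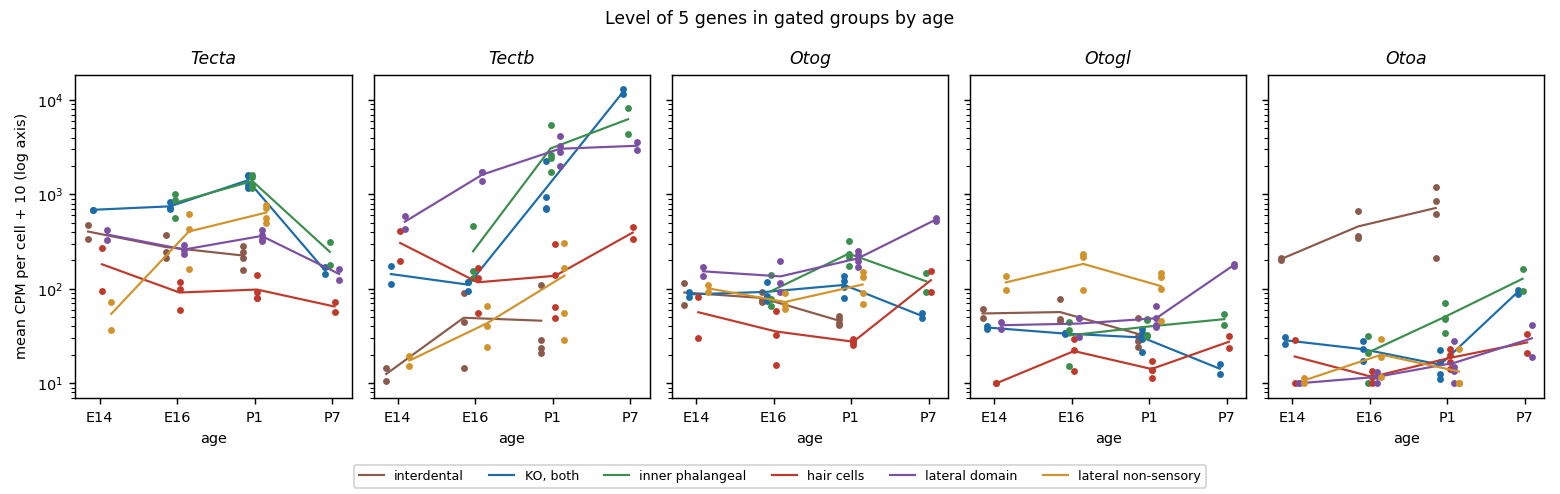
Level of 5 genes in 6 gated groups at the 4 ages, with KO taken whole. The y axis is mean CPM per cell plus 10 on a log scale, points are libraries and lines join group means, for groups with at least 10 cells in 2 or more libraries; Tecta in KO ran from 677 CPM at E14 to 1400 CPM at P1 and 145 CPM at P7, and Tectb in KO from 134 to 1147 and 12280 CPM.

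Tectb was at first highest in prosensory cells and at P7 in KO. At E14 medial prosensory cells held 873 and 1030 CPM and lateral domain cells 423 and 585 CPM, against 4.62 and 0.456 CPM in interdental cells. Medial prosensory cells (3.71, SE 0.24, adjusted p = 1.78e-08) and the lateral domain (2.66, SE 0.24, adjusted p = 5.12e-07) were above the other groups and interdental cells below (-3.46, SE 0.24, adjusted p = 1.14e-08). At E16 the lateral domain held 1732, 1730 and 1372 CPM and medial prosensory cells 1510, 1439 and 1050 CPM, and the groups overlapped. Remaining KO held 302, 296 and 338 CPM and medial KO 42.2, 31 and 24.2 CPM, with no overlap. Remaining KO was above the mean of the other groups (1.22, SE 0.31, adjusted p = 0.0147), which was lost without library 3 (0.82, adjusted p = 0.337) and turned to -0.07 with gates from the even-numbered markers of each list. Medial KO was below it (-2.09, SE 0.31, adjusted p = 1.06e-05).

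At P1 Tectb differed between the divisions of KO. Remaining KO held 5838, 2177, 3128 and 1590 CPM in libraries 1 to 4 and medial KO 697, 89.6, 136 and 152 CPM, and the groups did not overlap. The difference between them was -3.81, SE 0.35, adjusted p = 4.49e-09, and without library 1 it was -4.06, adjusted p = 4.16e-07. Inner phalangeal cells held 5461, 2438, 2583 and 1735 CPM and lateral domain cells 4117, 2772, 3260 and 1987 CPM. Remaining KO, inner phalangeal and lateral domain cells overlapped, and the first pair did not pass (0.02, SE 0.35, adjusted p = 0.982).

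Hair cells, inner and outer together, held 287, 54.7, 129 and 39.3 CPM of Tectb at P1, below every library of inner phalangeal and of lateral domain cells. The differences were 4.70, SE 0.35, adjusted p = 4.63e-13, for inner phalangeal minus hair cells, and -4.78, SE 0.35, adjusted p = 3.61e-13, for hair cells minus the lateral domain. Lateral non-sensory cells held 293, 155, 18.4 and 45.4 CPM, and the lateral domain was higher than them (4.96, SE 0.35, adjusted p = 1.02e-12). Interdental cells were the lowest of the 7 groups in each library, with 101, 13.7, 10.8 and 18.9 CPM. Library 1 was the highest of the 4 in each of the 7 groups, with 2306 CPM over all its cells against 826, 1059 and 660.5 CPM. Without it each of the 7 differences from the other groups kept its direction and its call. The call of medial KO was lost with gates from the even-numbered markers of each list (adjusted p = 0.0747), and that of lateral non-sensory cells with the odd-numbered ones (adjusted p = 0.0859).

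The level in hair cells was 5.95% to 12.4% of that over all cells of a library for Tectb and 5.66% to 14.3% for Tecta. In interdental cells it was 1.02% to 4.36% for Tectb and 15.6% to 22.4% for Tecta. For Tectb, hair cells thus stood above interdental cells and for Tecta below them, in 4 of 4 libraries.

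Tectb rose at different ages in different groups. In the lateral domain it rose from E14 to E16 (1.67, SE 0.28, adjusted p = 0.00168), a call that was lost without E14 library 1 (1.44, adjusted p = 0.113). From E16 to P1 it passed there as well (0.87, SE 0.23, adjusted p = 0.0393), but not when any of 8 libraries, which are those of E14 and E16 and P1 libraries 1 to 3, was left out (adjusted p 0.0566 to 0.113). From E16 to P1 it rose in remaining KO (3.14, SE 0.34, adjusted p = 3.46e-05), in inner phalangeal cells, from 452, 122 and 145 CPM (3.72, SE 0.40, adjusted p = 5.79e-05), and in medial KO (2.27, SE 0.48, adjusted p = 0.0104). Without P1 library 1 these were 2.79, 3.40 and 1.67, each past the threshold, and the medial KO call was lost without E16 library 2 (adjusted p = 0.0545).

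At P7 KO cells held 12990 and 11580 CPM of Tectb, inner phalangeal cells 8197 and 4302 CPM and lateral domain cells 2973 and 3559 CPM, and KO did not overlap with either. KO was above the mean of the other groups (3.53, SE 0.31, adjusted p = 5.68e-06). It rose from 2256, 691, 929.6 and 714 CPM at P1 (3.59, SE 0.37, adjusted p = 7.26e-06), and by 3.97 without P1 library 1. The size of this rise depends on the cells it is set against, since KO at P7 was not divided. The P7 mean was 10.7-fold that of the whole of KO at P1 and 3.86-fold that of remaining KO alone, and both P7 libraries lay above all 4 of remaining KO. The part of the mix of medial and remaining KO was not tested. Lateral domain cells (0.15, SE 0.26, adjusted p = 0.823) and inner phalangeal cells (1.09, SE 0.46, adjusted p = 0.243) did not pass. KO gave 62.2% to 68.1% of the Tectb UMIs of a P7 library and 41.9% to 42.7% of all its UMIs.

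Tectb was also counted at P7 in the gated glia and mesenchyme, and the source of these UMIs was not tested. Glia held 172 and 564.2 CPM and mesenchyme 584 and 515 CPM. After thinning to 1500 UMIs, 18.5% of glia and 18.4% of mesenchyme cells had a Tectb UMI (median depths 3553 and 3827), against 98.6% of KO cells (median depth 4782). Hair cells held 443 and 326 CPM, below the mesenchyme and between the libraries of glia, while 24.6% of thinned hair cells had a Tectb UMI (median depth 7121), above glia and mesenchyme. Against the mesenchyme the CPM and the share give opposite orders, and against glia the CPM overlapped, so that neither an order nor a change is read from them. The fitted difference from P1 was 1.87, SE 0.55, adjusted p = 0.0286, and its call was lost without P1 library 2 or 4 or P7 library 4 or 5 (adjusted p 0.0734 to 0.236).

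The ratio of the mean CPM of the 2 tectorin genes changed with age in KO taken whole, which was not divided at P7. At E14, Tecta over Tectb was 4.09 to 6.65 across libraries, and the E16 libraries gave 6.49 to 8.11. The range at P1 was 0.52 to 2.31, where library 1 gave the lowest value. It joined medial KO, at 1.46 to 16.25, with remaining KO, at 0.26 to 0.97, and the ranges of the divisions did not overlap. By P7 Tectb over Tecta was 73.1 to 98.4. In the lateral domain Tectb over Tecta was 1.32 to 1.41 in the E14 libraries, 4.85 to 7.79 in those of E16 and 6.42 to 12.5 in those of P1. The P7 libraries gave 19.5 to 30.9, and the ranges of E16 and P1 alone overlapped.

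The share of cells with UMIs of both tectorin genes can be set beside the product of the separate shares, without a test. Of thinned P1 remaining KO cells, 65% had UMIs of both, and the product of the separate shares was 63.6%. In the lateral domain at P1 these shares were 27.7% and 27.8%, and in medial prosensory cells at E14 they were 39.9% and 40.5%. Other groups stood on either side, with 19.4% and 12.5% in inner phalangeal cells at P7, 2.41% and 0.717% in hair cells at P1, 15.4% and 19.3% in the lateral domain at E16 and 2.19% and 4.63% in lateral non-sensory cells at P1.

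Among the 7 groups tested at P1, Otog was highest in inner phalangeal and lateral domain cells and lowest in hair cells. Inner phalangeal cells held 165, 209.7, 221 and 307 CPM and lateral domain cells 159, 240.4, 185 and 217 CPM, and these overlapped. Interdental cells held 33, 31.7, 37.6 and 41.4 CPM and hair cells 17.6, 17.8, 19.1 and 15.6 CPM, both below every library of the other groups tested. Otog was higher than in the other groups in inner phalangeal cells (1.45, SE 0.13, adjusted p = 2.93e-10) and the lateral domain (1.27, SE 0.13, adjusted p = 2.13e-09), and lower in interdental cells (-1.28, SE 0.13, adjusted p = 2.06e-09) and hair cells (-2.13, SE 0.13, adjusted p = 2.4e-15). Remaining KO, from 100, 122, 167 and 165 CPM, was also higher (0.68, SE 0.13, adjusted p = 0.000163), and did not pass with roof cells as a further group and library 3 left out (0.39, adjusted p = 0.102).

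Roof cells, which express the otoconial protein gene Oc90, held Otog at 171, 177 and 173 CPM at E16 and were above the mean of the other groups (1.12, SE 0.23, adjusted p = 0.000474). Their 130.2 and 134 CPM at E14 did not pass (0.54, SE 0.23, adjusted p = 0.167). Other fetal groups held Otog at similar levels. Medial prosensory and lateral domain cells had means of 159.9 and 143.4 CPM at E14 and of 153.3 and 125.5 CPM at E16. Medial prosensory cells overlapped with roof cells at E16 and were also called higher there, which did not hold under 7 of 11 alternatives. At P1 roof cells held 198, 136, 277 and 295 CPM, and library 3 held 9 such cells. With it left out and roof cells as a further group they were above the mean of the other groups (1.10, SE 0.16, adjusted p = 8.63e-06, where 40.9% of all genes passed). Tecta in the E16 roof cells was low, at 51, 96.4 and 27.1 CPM (-2.72, SE 0.22, adjusted p = 2.59e-12).

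Up to P1 the mean level of Otogl was highest in lateral non-sensory cells, which include Hensen, Claudius and outer sulcus cells. They held 88.2 and 126 CPM at E14 and 209, 226 and 86.2 CPM at E16, above every library of the other groups, and 137, 89.8, 125 and 36.1 CPM at P1, where library 4 overlapped with other groups. At each of these ages they were above the mean of the other groups (1.67, SE 0.23, adjusted p = 6.86e-05 at E14, 2.11, SE 0.30, adjusted p = 2.67e-06 at E16 and 1.67, SE 0.15, adjusted p = 9.13e-11 at P1). The lateral domain at P1, with 56.3, 38.7, 29.2 and 31.1 CPM, was slightly above the other groups (0.46, SE 0.15, adjusted p = 0.0125), which was lost without library 1 or 4 (adjusted p 0.0754 and 0.074). Hair cells, with 7.35, 3.88, 3.93 and 1.47 CPM, were lower (-1.60, SE 0.15, adjusted p = 2.98e-11).

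Among the 6 groups tested at P7, Otog and Otogl both stood highest in the lateral domain, the pillar and Deiters cells. Otog was at 511 and 547 CPM there and Otogl at 163 and 173 CPM, above every library of the other 5 groups tested. Both were higher than the mean of those groups (Otog 3.62, SE 0.32, adjusted p = 2.68e-06, and Otogl 3.29, SE 0.28, adjusted p = 1.83e-06). Lateral non-sensory cells, the highest group for Otogl up to P1, numbered 13 and 8 at P7 and were not tested. They held 1 Otogl UMI in library 4, so that no move of Otogl between these groups is read. The 138 cells of the lateral domain gave 34.3% to 38.9% of the Otog UMIs and 41.2% to 54.5% of the Otogl UMIs of a library, and 6.19% to 6.57% of all UMIs. After thinning, 50.7% of them had an Otog UMI (median depth 7961), against 11.5% of hair cells (7121), 5.58% of KO cells (4782) and 0.84% of glia (3553).

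From P1 to P7 both otogelin genes rose in the lateral domain (Otog 1.37, SE 0.30, adjusted p = 0.00522, and Otogl 1.90, SE 0.35, adjusted p = 0.00119). In KO, Otog fell from 69.8, 93.6, 111 and 125 CPM to 38.7 and 45 CPM (-1.06, SE 0.24, adjusted p = 0.00537), and Otogl fell from 27.6, 23.8, 19.3 and 11.4 CPM to 2.5 and 6.01 CPM (-1.08, SE 0.23, adjusted p = 0.00286). The libraries of the 2 ages did not overlap in any of these comparisons. The Otog call in the lateral domain was lost without P7 library 4 or 5 (adjusted p 0.0746 and 0.0929), and the KO calls of Otog and Otogl without P7 library 4 (adjusted p 0.0835 and 0.0794).

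Hair cells held Otog at 82.8 and 144 CPM at P7, higher than at P1 (2.12, SE 0.46, adjusted p = 0.00367), and this call was lost without P7 library 5 (1.75, adjusted p = 0.128). Glia (0 and 15.4 CPM) and mesenchyme (5.32 and 3.13 CPM) lay below them. The 8 lateral domain markers summed to 357 and 451 CPM in these hair cells and to 276 to 420 CPM in hair cells at P1, against 3326 and 3543 CPM in the lateral domain at P7. At P7, 7 of the 8 were above 0 in hair cells and Bmp2 was at 0 in both libraries, and their part in the Otog level was not tested.

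Otoa was highest in interdental cells at E14, E16 and P1. They held 200.4 and 191 CPM at E14 and 338, 356 and 651 CPM at E16, above every library of the other groups, and were higher than the mean of those groups (3.30, SE 0.32, adjusted p = 1.19e-06 at E14 and 4.44, SE 0.42, adjusted p = 3.92e-10 at E16). Roof cells came next, with 116 and 71.3 CPM at E14 (2.13, SE 0.32, adjusted p = 0.000103) and 7.01, 75.8 and 226 CPM at E16 (1.46, SE 0.42, adjusted p = 0.0129). The E16 call was lost without library 2 or 3 (adjusted p 0.125 and 0.524). Roof cells also carried interdental markers, with a median of 4 of the 10 detected at E14 and 3 at E16, against 5 in interdental cells and 0 or 1 in the other groups. Their part in the Otoa of roof cells was not tested. In the lateral domain at E14, 0 Otoa UMIs were counted in 123 cells, and the 3 UMIs per library that a count of 0 allows would be 8.48 and 8.49 CPM.

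At P1 interdental cells held 1176, 613, 201 and 844 CPM in libraries 1 to 4, so that library 3 lay below the E16 range and the others overlapped or exceeded it. The change from E16 did not pass (0.46, SE 0.40, adjusted p = 0.526). Medial KO, with 7.44, 1.79, 0.726 and 3.46 CPM, was far lower (interdental minus medial KO 5.52, SE 0.23, adjusted p = 1.91e-17). After thinning, 52.1% of interdental cells (median depth 5784) and 1.11% of KO cells (4812) had an Otoa UMI, the second no more than the 1.16% of hair cells (6717). Inner phalangeal cells, with 60.8, 39.4, 24.1 and 38 CPM, were slightly higher than the mean of the other groups (0.79, SE 0.18, adjusted p = 0.00101). This did not pass with gates from the odd-numbered markers of each list (0.08, adjusted p = 0.878), or with roof cells as a further group and library 3 left out (0.51, adjusted p = 0.115).

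Otoa rose in KO between P1 and P7. It went from 12.6, 2.56, 1.18 and 6.63 CPM to 78.9 and 86.9 CPM, with no overlap (2.61, SE 0.27, adjusted p = 7.58e-06). The share of thinned KO cells with a UMI was 11.4% at P7, against 0.84% of glia and 0.877% of mesenchyme at the depths given above. At P7 KO was above the mean of the other groups (1.71, SE 0.36, adjusted p = 0.0051), and inner phalangeal cells held 150.5 and 85.2 CPM and mesenchyme 8.81 and 5.39 CPM. KO gave 53% to 63.8% of the Otoa UMIs of a P7 library and 41.9% to 42.7% of all its UMIs. Interdental cells had given 73.2% to 86% of the Otoa UMIs at P1 and 6.03% to 10.15% of all UMIs. The interdental gate took 18 and 7 cells at P7, with 138 and 0 CPM, and they were not tested. The interdental gate thus held 972 of 14043 cells at P1 and 25 of 3377 at P7. The 10 interdental markers summed to 330 to 435 CPM in KO at P1 and to 346 and 270 CPM at P7, against 412 and 277 CPM in inner phalangeal cells, 295 and 194 CPM in mesenchyme and 83.3 and 107 CPM in the lateral domain at P7 and 4634 to 6467 CPM in interdental cells at P1. The few interdental cells at P7 held them at 1744 and 1310 CPM. At P7 Matn1 was at 0 or had no row, in KO and interdental cells as in hair, inner phalangeal and lateral domain cells. Aldh1a3 was at 0 in both libraries of interdental cells and in library 5 of KO. KO took only cells of low score on the interdental list at both ages, so that these sums cannot show whether interdental cells entered it. The part of interdental cells in the Otoa of KO was not tested.

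**Figure D3:**
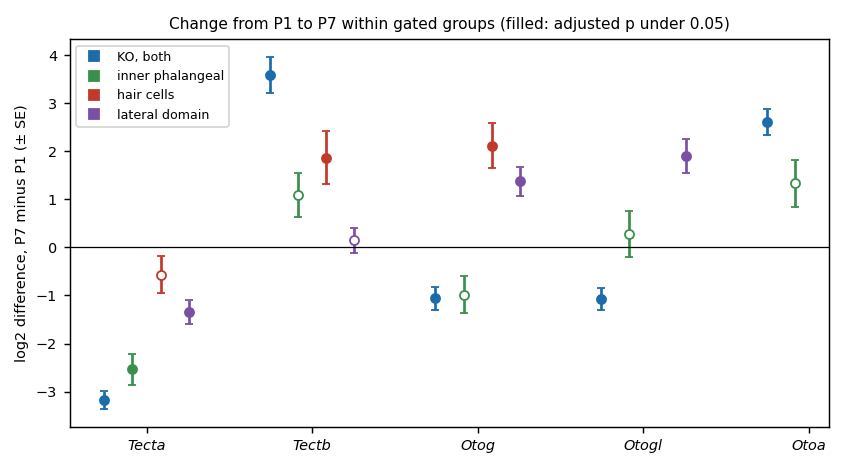
Change from P1 to P7 within 4 gated groups, on the log2 scale of mean CPM plus 10, with KO taken whole. Points are limma's estimates, bars 1 standard error and filled points an adjusted p under 0.05; in KO, Tecta, Otog and Otogl lay below 0 and Tectb and Otoa above it, while in the lateral domain Tecta lay below 0 and Otog and Otogl above it. Genes too low for a test in a group are not drawn there.

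The lateral domain and KO changed differently from P1 to P7 for Tecta, Tectb, Otog and Otogl, by a test of the difference of the changes that 13.9% of 8739 genes passed. Tecta fell less in the lateral domain (1.83, SE 0.26, adjusted p = 0.00079). Otog (2.43, SE 0.24, adjusted p = 7.4e-05) and Otogl (2.98, SE 0.26, adjusted p = 3.4e-05) rose there and fell in KO. Tectb rose in KO relative to the lateral domain (-3.44, SE 0.32, adjusted p = 4.6e-05). Otoa passed the filter of this fit only through KO at P7, so that its difference (-1.75, SE 0.33) is given without a call. In the lateral domain it held 0 to 17.8 CPM at P1 and 8.75 and 31.1 CPM at P7. In KO it held 1.18 to 12.6 CPM and then 78.9 and 86.9 CPM. Tectb also differed from E14 to E16 (2.02, SE 0.34, adjusted p = 0.0262), where 0.481% of genes passed, and the other way from E16 to P1 (-2.34, SE 0.28, adjusted p = 0.00372), where 1.58% passed. The other 4 genes did not pass at these steps.

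Over whole libraries, without gating, Tecta rose from 549, 506 and 510.1 CPM at E16 to 914, 1258, 1230 and 948 CPM at P1 (1.03, SE 0.16, adjusted p = 0.00118) and fell to 137 and 139 CPM at P7 (-2.87, SE 0.18, adjusted p = 2.58e-07). Tectb rose at both steps (1.84, SE 0.34, adjusted p = 0.00418, and 2.91, SE 0.39, adjusted p = 0.000177), to 9234 and 7226 CPM at P7. These were 2 of the 5 genes at each step, and 12.7% and 20.5% of all genes passed. From E14 to E16, 0 of the 5 passed in limma, 0 had an unadjusted p under 0.05, and 8.18% of all genes passed. More cells of a type and more RNA per cell cannot be told apart in these whole-library values.

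Ceacam16 was at the limit of detection at P7. It had 36 and 19 UMIs in 1775 and 1602 cells, or 4.13 and 2.42 CPM, and stood under the mean of 10 CPM needed for a test. KO held 19 and 12 of these UMIs (5.08 and 3.75 CPM), which is 52.8% to 63.2% of them, beside 41.9% to 42.7% of all UMIs. Hair cells held 5 and 1, inner phalangeal cells 2 and 0, glia 0 and 2 and lateral domain cells 0 and 1. Ungated cells held 12 over both libraries. After thinning 0.635% of KO cells and 0.397% of hair cells had a UMI (exact 95% intervals 0.291% to 1.2% and 0.01% to 2.19%, for counting error only), and no difference between them was detectable at this depth.

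At P1 the lateral domain and the lateral non-sensory group were divided further by marker lists, into inner pillar (177 cells), row 3 Deiters (233), Hensen (180) and outer sulcus and Claudius cells (85), and these values carry no test. Hensen cells held Tecta at 786, 972, 1052 and 967 CPM and outer sulcus and Claudius cells at 55, 66.7, 0 and 17.3 CPM, where library 3 held 8 cells. Hensen cells were higher in 4 of 4 libraries, with a 27.2-fold higher mean. Tectb was higher in Hensen cells in 2 of 4 libraries, with 387, 266, 16.1 and 37.4 CPM in Hensen cells and 114, 26.1, 24.9 and 71.3 CPM in the other group. Otogl was lower in Hensen cells in 4 of 4 libraries, with means of 91.3 and 110 CPM, a gap within the spread between libraries.

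**Figure D4:**
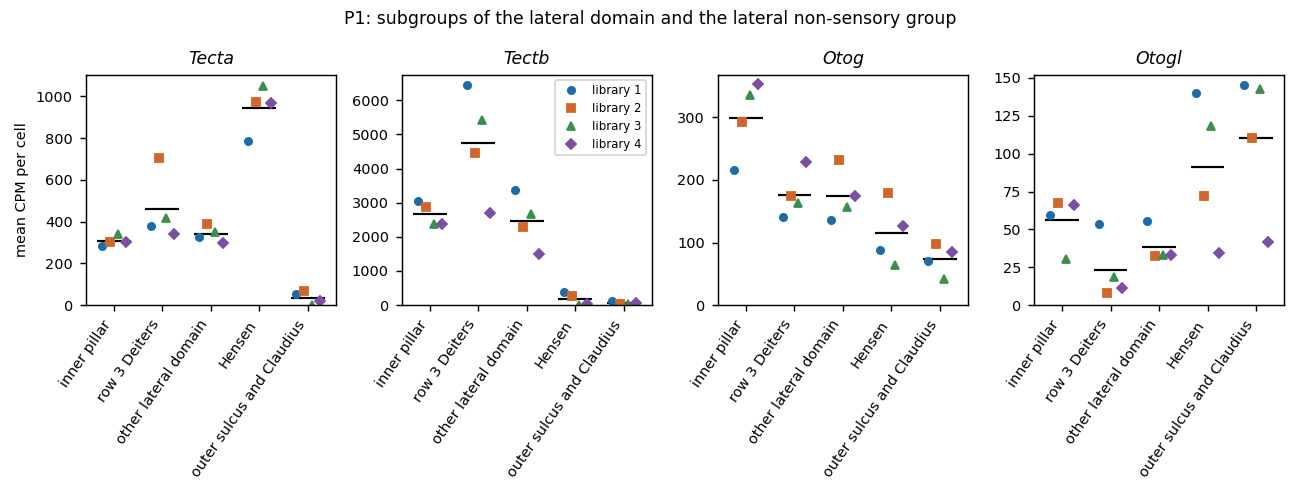
Level of Tecta, Tectb, Otog and Otogl in 3 subgroups of the lateral domain and 2 of the lateral non-sensory group at P1. The y axes are mean CPM per cell and start at 0, points are the 4 libraries and horizontal lines their mean; Tecta averaged 944 CPM in Hensen cells and 34.7 CPM in outer sulcus and Claudius cells, and Otog was highest in inner pillar cells in each library.

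Within the lateral domain Tectb was highest in row 3 Deiters cells, with 6431, 4440, 5423 and 2686 CPM, against 3039, 2870, 2381 and 2379 CPM in inner pillar cells. Row 3 Deiters cells were higher in 4 of 4 libraries. Otog was the reverse, with 216, 292, 336 and 353 CPM in inner pillar cells and 141, 174, 163 and 229 CPM in row 3 Deiters cells, again in 4 of 4. Otogl was also higher in inner pillar cells in 4 of 4 libraries (56 ± 17.4 against 22.9 ± 21.1 CPM, SD, n = 4 libraries), on as few as 1 UMI in the row 3 Deiters cells of library 2.

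A list of 12 other genes of these matrices was set beside the 6: the collagen genes Col2a1, Col9a1, Col9a2, Col9a3, Col11a1 and Col11a2, stereocilin (Strc), the protease hepsin (Hpn), and Oc90, Otol1, Sparcl1 and Zpld1 of otoconial and cupular matrix. Of these 10 were tested at P1. In remaining KO, where Tecta was highest, 8 of 10 were higher and 1 lower than in the other groups (median log2 difference 1.60), and 28.6% of all genes passed. Col9a1 was at 4294 ± 696 CPM there (SD, n = 4 libraries, 2.70, SE 0.14, adjusted p = 1.44e-15). The gene that was lower was Oc90 (-1.03, SE 0.31), which is itself a marker of the roof gate. KO took only cells of low score on the roof list, so that the gate partly set this value and it is given without a call. In hair cells 0 of 10 were higher and 8 lower (median -2.58), where 68.9% of all genes passed.

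From P1 to P7 0 of 10 of these genes rose in KO and 7 fell (median -0.91), where 24% of all genes passed. Among them were Sparcl1 (-2.95, SE 0.20, adjusted p = 1.13e-07), Col9a3 (-1.33, SE 0.22, adjusted p = 0.000498) and Col2a1 (-0.88, SE 0.24, adjusted p = 0.0136). In the lateral domain 2 of 10 rose, Col9a1 and Col11a2 (1.71, SE 0.32, adjusted p = 0.00135), and Sparcl1 fell (median 0.09, 7.91% of all genes). Strc, which links stereocilia to the tectorial membrane, reached the mean CPM needed for a test at P7 alone, and there only through hair cells. It is given without a call, at 224 CPM in hair cells and 7.3 CPM in the lateral domain.

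The genes most like each member were taken by Pearson's r over 31 group-by-age means among 9284 genes, as a description, since these means share libraries and depth. Nearest to Tecta were Scrn1 (r = 0.885), Fzd8 (0.86) and A830082K12Rik (0.806), and nearest to Tectb were Igfbp3 (0.865), Anxa5 (0.83) and Gpr37 (0.783). Nearest to Otog were Gas2 (0.788), Msi1 (0.778) and BC064078 (0.75), and nearest to Otogl were Rapgef5 (0.856), Syne2 (0.824) and Lad1 (0.797). Nearest to Otoa were Lrig1 (0.823), the interdental marker Ptgds (0.807) and Cited4 (0.792). Among the members Otog and Otogl were most alike (0.671), Tecta and Tectb stood at 0.229, and Otoa lay between -0.215 and 0.065 with the other 4.

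The inner phalangeal gate at P7 needs a further value beside its results. Its 63 and 61 cells held the 5 glial markers at summed levels of 469 and 1238 CPM, against 31710 and 33530 CPM in glia and 20.1 and 18.8 CPM in KO. The 4 inner phalangeal markers summed to 3844 and 6163 CPM in these cells and to 4061 and 3634 CPM in glia, and these overlapped. The 5 mesenchyme markers summed to 330 and 1764 CPM there, against 5357 and 6380 CPM in mesenchyme. Prx and Cldn19 were at 0 in library 4, and Pou3f4 in both libraries. In these cells Tecta (1.85, SE 0.29, adjusted p = 0.00145), Tectb (2.27, SE 0.31, adjusted p = 0.000577), Otogl (1.00, SE 0.28, adjusted p = 0.0361) and Otoa (2.20, SE 0.36, adjusted p = 0.00198) were called higher than in the other groups. With gates from the even-numbered markers of each list they were at 0.23, -1.03, -0.41 and -0.33, and the part of glia and mesenchyme was not tested.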

How the data were processed

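Single cells of the cochlear duct of CD1 mice were profiled with the 10x Genomics droplet method, and each library is a separate collection of pooled animals. Per the submitters' processing notes, the authors used Cell Ranger 2.1.1 and Seurat 2.0 with the mm10 build. The deposited values, made by the authors, are the natural log of 1 plus 10000 times a gene's share of the UMIs of a cell, in 1 table for each age, and 100% of the values tested came back as whole UMIs within 2%. The E14 and P7 tables hold more cells than the study's main text gives for these ages. Library totals were 3828400 to 23523800 UMIs.

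The 6 genes and all gene lists were chosen with earlier results of these data known. Values were turned back to CPM and averaged over the cells of a group in each library. Cells were gated on 17 marker lists. Groups other than KO needed a mean z-score, taken within each age, of at least 0.8, a lead of 0.3 and at least 2 markers detected. KO took cells left over with a best score under 0.5 on those lists and a KO score that was not negative. At E14, E16 and P1 it was divided by the sign of the score on a medial list, with no lead. The further subgroups at P1 needed a score of 0.5 (1.5 for row 3 Deiters cells) and a lead of 0.25. No caller was used for doublets, and cells that passed more than 1 list were left out as mixed. P7 glia and mesenchyme were kept as gates because their mean Epcam was under 0.25 of that over all cells. For shares of cells with a UMI, cells were thinned to 1500 UMIs.

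Differences were tested with limma 3.58.1 in R 4.3.3 (lmFit, eBayes with trend, two-sided) on log2(mean CPM + 10) per group and library, for groups with at least 10 cells in each library and genes with a mean CPM of at least 10, with Benjamini-Hochberg adjustment over all genes tested and a threshold of 0.05. Such differences understate the change of low genes. Within an age the library was a block, and each group was set against the mean of the others. Duct floor values were fitted over all 11 libraries, and a group between ages in a fit of its own. Differences between the changes of the lateral domain and KO came from 1 fit of the lateral domain minus KO within each library. That fit used eBayes without the trend and genes with a mean CPM of at least 10 over both groups. The scripts were tested on simulated data. Other steps used Python 3.11.15 with numpy 2.4.6, scipy 1.17.1, pandas 2.3.3 and matplotlib 3.10.9.

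The genes named were the 6, for each of 5 of them the 3 genes of highest Pearson correlation over the group-by-age means, and 12 other matrix genes counted as a list. Replicate numbers are shared between ages, but of 8 same-numbered pairs the correlation of deviations was over 0.1 in 1 (-0.283 to 0.112), so they were not taken to pair libraries. The alternatives were a pseudocount of 1 CPM, no filter on low values, pooled CPM, no library block, gates from odd-numbered or even-numbered markers of each list, gate thresholds times 1.5, leaving out the 5% of cells of most UMIs, leaving out each library, and the replicate number as a block. Within an age, no alternative listed so far added a group to those of the reported fit. Leaving out the E14 hair cells, and adding the P1 roof cells with library 3 left out, were chosen after the data were seen.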

Additional observations from a re-analysis of the deposited data

Results flagged for a closer look

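In 5 of 45 group-by-gene sets of 4 libraries at P1, 1 library lay farther from the others than Dixon's 95% critical value allows, which chance gives in about 1 of 20 sets. For Tectb this was library 1, at 2256 CPM in the whole of KO (691 to 930 in the others), 696.7 CPM in medial KO (89.6 to 152) and 100.6 CPM in interdental cells (10.8 to 18.9). Otogl in remaining KO was at 17.68 CPM in library 4 (33.9 to 35.4 in the others). Otoa in lateral non-sensory cells was at 13.25 CPM in library 1 and 0 CPM in the others.

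The changes of Tecta, Tectb, Otog and Otogl differed between the lateral domain and KO, as lateral domain change minus KO change on the log2 scale with limma's test of that difference. From P1 to P7 it was 1.833 for Tecta (adjusted p = 0.00079), -3.441 for Tectb (adjusted p = 4.6e-05), 2.433 for Otog (adjusted p = 7.4e-05) and 2.978 for Otogl (adjusted p = 3.4e-05). For Otoa it was -1.753, without a call, since the gene passed the filter of this fit only through KO at P7. For Tectb it was 2.016 from E14 to E16 (adjusted p = 0.0262) and -2.343 from E16 to P1 (adjusted p = 0.00372). The lateral domain at P7 rests on 138 cells.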

How the results depend on the processing

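Of 143 called differences, 82 stayed past the threshold under every alternative with a test and moved by less than 1 SE under those without one. The 143 include those of E14 hair cells, whose values are given above without calls. Of 1792 values of called differences under the alternatives, 1596 kept their direction and, where tested, their call, 156 fell below the threshold, 6 changed sign and 34, with 1 library of E14 or P7 left, kept their direction, moved by more than 1 SE and had no test. Of differences not called, 66 values newly passed in the reported direction and 2 in the other. The values below the threshold came to 50 when a library was left out, 18 and 12 with gates from even-numbered and odd-numbered markers, 18 with no filter on low values and 15 with a pseudocount of 1 CPM. The changes of sign were Tecta in E14 hair cells (0.31), Tectb in E16 remaining KO (-0.066), Otoa in P1 remaining KO (0.17) and, in P7 inner phalangeal cells, Tectb (-1.03), Otogl (-0.41) and Otoa (-0.33), all with even-numbered markers. With roof cells as a further group at P1 and library 3 left out, 5 calls were lost. The cause was not tested.

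Of 122 counts of called differences, 121 were within 1.5 times the count reported over the steps they cover. The exception was the same group between ages with even-numbered markers, at 33 of 101 pairs tested against 20 of 86. Refitting E14 without its hair cells, which sets each group against another mean, gave 22 of 35 (11.7% over all genes), where the reported fit with their comparisons left aside gave 17 of 35 (6.77%). When libraries were left out in turn the counts ran from 16 to 23 for groups at E16, from 28 to 30 for groups at P1, from 19 to 21 for neighbouring groups and from 16 to 21 for the same group between ages. Over the duct floor they were 0 from E14 to E16 and 2 to 3 at each later step. At E14 and P7 leaving out a library within the age leaves 1, and these are values with no test.

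With the replicate number as a block, the count for the same group between ages was 11 of 69, where the reported fit had 9 for the same steps up to P1, and the duct floor counts were 0 and 2. The call of Otog in inner phalangeal cells from E16 to P1 was lost under this block (1.21, adjusted p = 0.119 in limma), and Tectb newly passed from E14 to E16 in medial prosensory (0.63), lateral non-sensory (1.88) and interdental cells (2.21). From P1 to P7 no paired fit was made, because the libraries share only the number 4. The values rest on 2 libraries at E14 and P7, on gates rebuilt from markers, and on few cells for P7 lateral domain and inner phalangeal cells and E14 hair cells.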
